A study of Homo sapiens with 6 samples.

Results

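Sphingosine-1-phosphate (S1P) is a signalling lipid made from the sphingolipids of cell membranes, and 10 genes that make, export, sense or remove it were followed here among the 58735 genes measured in MUM2B cells. They were taken by name: the exporter SPNS2, the kinases SPHK1 and SPHK2, the phosphatases SGPP1 and PLPP3, the lyase SGPL1, the ceramidase ACER3 and the receptors S1PR1, S1PR2 and S1PR3. Each symbol matched 1 row of the files. The set was chosen by reference to earlier results of the same comparison, in which SPNS2 differed strongly, so the differences of these 10 genes are given as a description, and no p-value is printed for them. The lists of other pathway genes were also drawn up with earlier results known, so their p-values are not independent evidence.

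The labels give MUM2B as a melanoma cell line that was stably modified with a vector that was empty in the control line and drove overexpression of LACTB in the other. LACTB is a mitochondrial serine protease-like protein. Both lines were grown in RPMI 1640 with 10% serum, the labels name no drug or other agent, and RNA-seq libraries were made from 3 samples per group. The labels name neither the promoter of the vector, nor whether a line is 1 clone, nor whether the replicates were grown separately. The p-values below therefore reflect the spread among these libraries alone, and that spread may be technical. LACTB itself lay at 3.81, 3.39 and 4.71 FPKM (sequenced fragments divided by exon length and library size) with empty vector and at 173.9, 169.3 and 161.5 FPKM with LACTB, a 42.4-fold difference.

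In a cell, S1P arises when ceramidases release sphingosine from ceramide and a sphingosine kinase adds a phosphate. It can be returned to sphingosine by phosphatases, destroyed by the lyase of the endoplasmic reticulum, or carried out of the cell. Outside, it binds G protein-coupled receptors and is known for its control of the endothelial barrier, of lymphocyte exit from lymph nodes and of cell migration. In bulk RNA, as here, fewer cells of a kind and less RNA per cell cannot be told apart.

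The libraries held 16978799 to 18395631 reads in genes. Empty vector replicate 3 stood apart, with 3.61% of its reads from mitochondrially encoded genes against 4.65% to 5.62% in the other 5 libraries. Of 14 melanocyte markers, 13 lay under 1 FPKM, PAX3, OCA2 and S100B at 0 in all libraries, and RAB27A alone stood above it. Of 12 markers of vascular endothelium, the cell type in which S1PR1 and SPNS2 are best known, 8 lay under 1 FPKM, among them PECAM1, VWF and ERG, and EMCN was listed at 0. CDH5, TIE1, ROBO4 and ESAM were above it. The sum of the 12 ran from 100.25 to 109.3 FPKM with empty vector and from 66.5 to 72.8 FPKM with LACTB. Nearly all of that gap came from CDH5, the vascular endothelial cadherin, at 49.8 ± 2.56 and 14.0 ± 0.453 FPKM (SD, n = 3 each), whereas TIE1 stood at 36.3 ± 1.30 and 36.3 ± 1.83 FPKM. The part of these markers in the results below was not tested. Keratinocyte markers other than KRT10, and all 8 fibroblast and all 9 lymphoid and myeloid markers, lay under 1 FPKM.

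Promoter stretches are shown for the 3 members that were called in the comparison below and have an entry in the RefSeq promoter table, which held 12 windows for 8 of the 10 genes. SPNS2 and SGPP1 had no window. Each stretch is the 250 bases before an annotated start (GRCh38.p14), written 5′ to 3′ on the strand of the gene. S1PR1 lies at chr1:101236769-101237018 (plus strand), SGPL1 at chr10:70815698-70815947 (plus strand) and the first of 3 starts of SPHK1 at chr17:76382954-76383203 (plus strand). Capitals mark matches, on either strand, to 6 sets of letters: GGAATG (bound by TEAD factors, the partners of YAP), TCACNCCAC (sterol response), TGATGCAA (amino acid response), TGACNNNGC (antioxidant response), GGGCGG, known as the GC box, and TATAAA, at which the TATA-binding protein binds.
S1PR1: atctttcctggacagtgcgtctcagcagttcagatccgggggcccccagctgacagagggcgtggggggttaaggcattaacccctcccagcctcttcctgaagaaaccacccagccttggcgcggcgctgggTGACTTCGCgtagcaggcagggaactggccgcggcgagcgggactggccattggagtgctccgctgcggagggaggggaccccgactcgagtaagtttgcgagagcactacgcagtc
SGPL1: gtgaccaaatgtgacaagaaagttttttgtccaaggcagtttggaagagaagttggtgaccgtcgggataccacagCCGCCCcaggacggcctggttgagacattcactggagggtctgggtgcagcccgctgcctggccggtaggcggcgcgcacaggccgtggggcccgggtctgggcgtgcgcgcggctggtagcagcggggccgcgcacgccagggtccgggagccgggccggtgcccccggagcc
SPHK1: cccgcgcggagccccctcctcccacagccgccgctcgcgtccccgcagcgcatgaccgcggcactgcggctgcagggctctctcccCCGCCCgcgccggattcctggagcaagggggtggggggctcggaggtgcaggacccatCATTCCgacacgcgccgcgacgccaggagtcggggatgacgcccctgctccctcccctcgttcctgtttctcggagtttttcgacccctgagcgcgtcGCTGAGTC

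The S1PR1 stretch held 1 match, TGACTTCGC of the antioxidant response letters, beginning at position -117 from the start, and the SGPL1 stretch held 1 GC box at -174. The SPHK1 stretch held a GC box at -164, the TEAD letters at -106, and antioxidant response letters that begin at -8 and run past the stretch shown. Over the full windows, from 250 bases before to 50 after a start, the TEAD letters occurred in 2 of 12 member windows (SPHK1 and SPHK2) against 14.0% of 35116 windows of all genes. The antioxidant response letters occurred in 4 of 12 (SPHK1 at 2 starts, S1PR1 and ACER3) against 13.3%, and the GC box in 7 of 12 against 45.0%. Neither the sterol response, the amino acid response nor the TATAAA letters occurred in a member window, against 1.13%, 0.866% and 11.5% of all windows. The promoters of SPNS2 and SGPP1, without a window, were not searched for any of the letters. The upstream stretches of S1PR1, SGPL1 and SPHK1 were 64.4%, 68.8% and 72.4% G and C, above the median of 58% over all windows. A match describes the letters only, and their absence from a window says nothing of a factor.

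**Figure D1:**
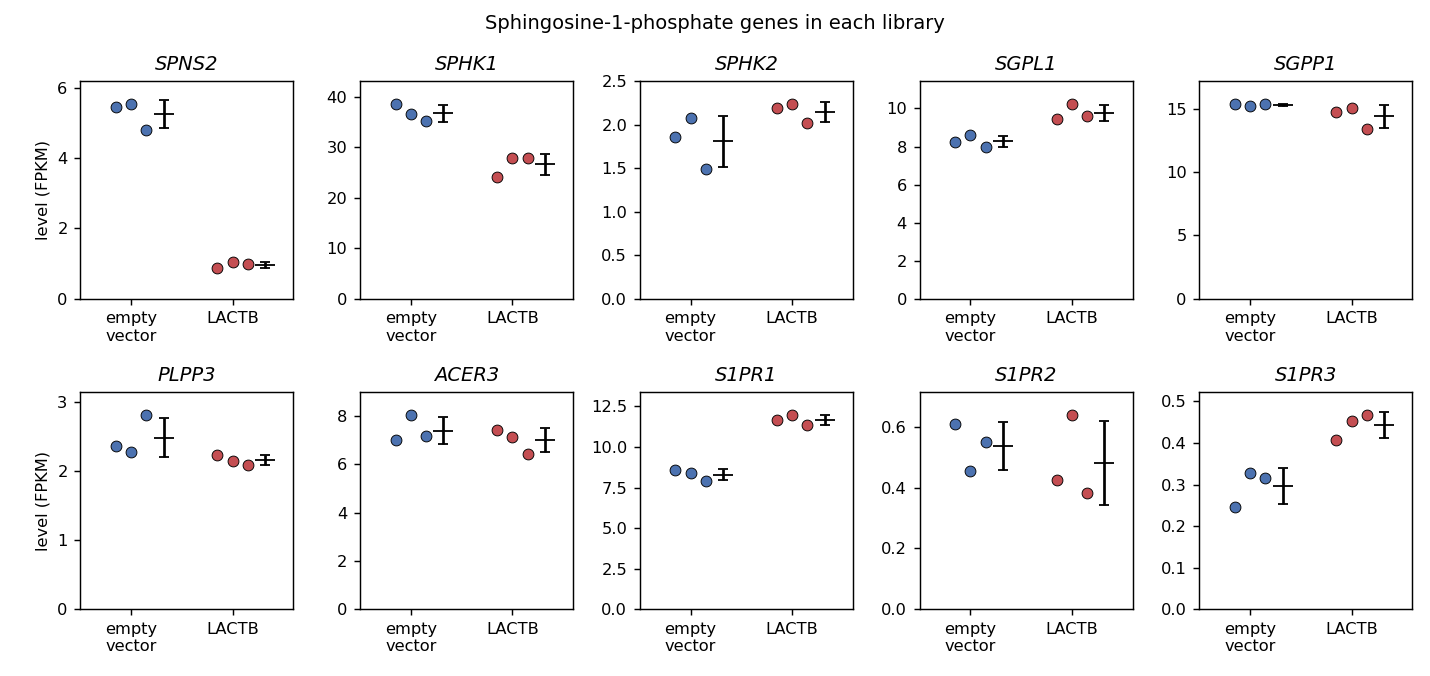
Level of each of the 10 genes (FPKM, linear axis from 0, scale differs between panels) in the 3 empty vector libraries (blue) and the 3 LACTB libraries (red), with the group mean and SD beside the points. SPNS2 separates the groups most, from 4.80 or more down to 1.05 FPKM or less, while SPHK2, ACER3 and S1PR2 overlap.

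The exporter showed the largest difference of the set. SPNS2 (ENSG00000183018; GRCh38 chromosome 17, 4498838 to 4539035, protein-coding), the membrane transporter that releases S1P from cells, lay at 5.43, 5.52 and 4.80 FPKM with empty vector and at 0.873, 1.05 and 0.974 FPKM with LACTB. All LACTB libraries were far below all empty vector libraries, and the means, 5.25 ± 0.392 and 0.964 ± 0.0869 FPKM (SD, n = 3 each), differed 5.45-fold. Reads numbered 356 to 412 per library in one group and 65 to 74 in the other. The ratio of LACTB to empty vector was 0.183 from the summed reads, and counting error alone placed it between 0.158 and 0.212 (95%, Clopper-Pearson, exact). Such an interval, here and below, pools the reads of a group and leaves out the spread between its libraries. It is no test of a gene chosen on this comparison. Leaving out any 1 library moved the fold between 5.202 and 5.690. The spread between LACTB libraries, 9.01% of their mean, was below the 11.9% that counting alone would give at this depth. On the log2(FPKM + 1) scale the difference was -1.67 (SE 0.072), the 10th lowest of 11875 tested genes. On the ratio of means it was -2.45, since adding 1 FPKM shrinks the change of a gene at this level. SPNS2 passed the filter of the fit, a mean of at least 1 FPKM over all libraries, only through the empty vector group. Its rank and SE describe values on which the choice of the set rested. The last exon of SPNS2 shares 139 bases, 3.38% of its exon sequence, with MYBBP1A on the other strand, a gene at 19.4 FPKM, and the use of strand in counting is not given in the sources used here.

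Of the 2 kinases, the abundant one was lower. SPHK1 (ENSG00000176170; chromosome 17, 76376584 to 76387860), the mainly cytosolic kinase, lay at 38.5, 36.5 and 35.1 FPKM with empty vector and at 24.1, 27.8 and 27.9 FPKM with LACTB, on 1928 to 2987 reads per library. The groups did not overlap, although LACTB replicate 1 lay clearly below the other LACTB libraries. The means were 36.7 ± 1.69 and 26.6 ± 2.14 FPKM, 1.38-fold lower with LACTB, with a log2 difference of -0.45 (SE 0.066). SPHK1 was the most abundant of the 10 genes in both groups, at the 88.7th percentile of all tested genes by mean FPKM.

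SPHK2 (ENSG00000063176; chromosome 19, 48619291 to 48630717), the kinase found in the nucleus, endoplasmic reticulum and mitochondria, stood at 1.86, 2.07 and 1.496 FPKM with empty vector and at 2.20, 2.23 and 2.02 FPKM with LACTB. The groups overlapped, with a log2 difference of 0.17 (SE 0.091). Its low value in empty vector replicate 3 carried much of the difference: the ratio of means was 1.19 with that library and 1.09 without it. SPHK2 shares 246 bases of exon with the ribosomal protein gene RPL18 on the other strand, which stood at 156.2 FPKM.

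Within a library, SPHK1 exceeded SPHK2 by 20.6, 17.6 and 23.5 times with empty vector and by 10.98, 12.4 and 13.8 times with LACTB, per length of exon. The sum of both kinases went from 38.5 ± 1.87 to 28.7 ± 2.10 FPKM and so remained mostly SPHK1. SPNS2 amounted to 14.1%, 15.1% and 13.7% of the SPHK1 level with empty vector and to 3.62%, 3.77% and 3.49% with LACTB. The exporter was 3.95 times lower relative to the kinase in the same libraries, without overlap of the groups. This restates the differences of SPNS2 and SPHK1 given above and is no further result.

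**Figure D2:**
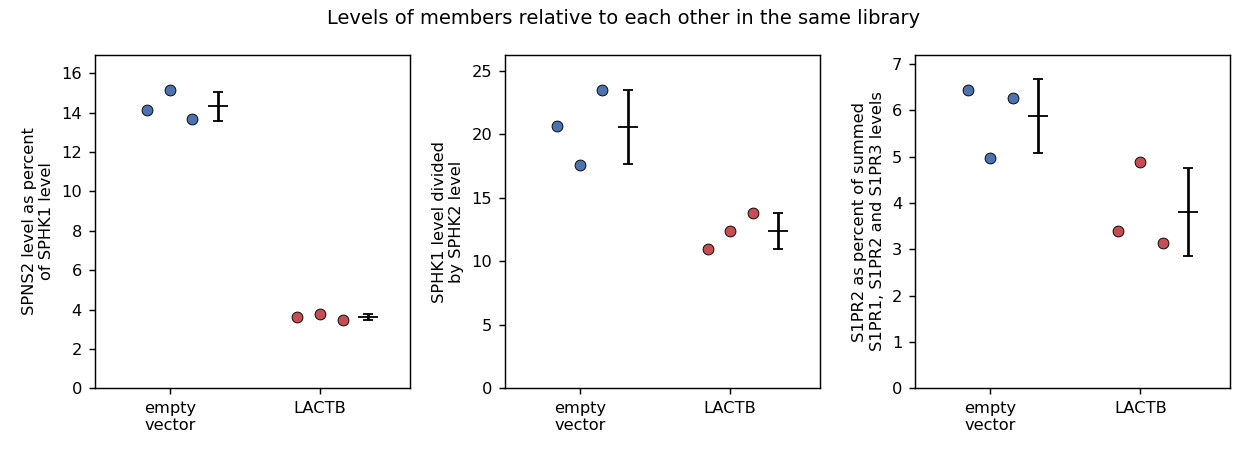
Ratios of levels (FPKM) within each library, empty vector in blue and LACTB in red, with mean and SD. SPNS2 as a percentage of SPHK1 falls from about 14.3 to 3.63, SPHK1 divided by SPHK2 from 20.6 to 12.4, and S1PR2 as a percentage of the 3 summed receptor levels from 5.88 to 3.81. The S1PR2 level itself overlapped between the groups, while the summed level was higher with LACTB.

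The genes that remove S1P differed little. SGPL1 (ENSG00000166224; chromosome 10, 70815961 to 70881173), the lyase that cleaves S1P irreversibly to a fatty aldehyde and phosphoethanolamine, lay at 8.26, 8.58 and 7.99 FPKM with empty vector and at 9.46, 10.2 and 9.59 FPKM with LACTB. All LACTB libraries were above all empty vector libraries. The means of 8.28 ± 0.298 and 9.75 ± 0.406 FPKM gave a 1.18-fold difference (log2 difference 0.21, SE 0.048). The log2 difference was 0.18 without LACTB replicate 2, the highest library. SPHK1 exceeded SGPL1 by 4.43 ± 0.207 times with empty vector and by 2.72 ± 0.179 times with LACTB.

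SGPP1 (ENSG00000126821; chromosome 14, 63684214 to 63728039), the phosphatase of the endoplasmic reticulum, was the second most abundant of the 10 genes. It lay at 15.3, 15.2 and 15.3 FPKM with empty vector and at 14.7, 15.1 and 13.4 FPKM with LACTB. The LACTB libraries were all slightly lower, mainly replicate 3, with a log2 difference of -0.084 (SE 0.051). PLPP3 (ENSG00000162407; chromosome 1, 56494747 to 56645301), a cell-surface phosphatase that acts on S1P and lysophosphatidic acid outside the cell, lay at 2.37, 2.28 and 2.81 FPKM with empty vector and at 2.24, 2.15 and 2.09 FPKM with LACTB. The LACTB libraries were all lower, although the groups nearly met. Empty vector replicate 3 was the high library, and without it the ratio of means went from 0.869 to 0.930. The log2 difference was -0.14 (SE 0.076).

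ACER3 (ENSG00000078124; chromosome 11, 76860867 to 77026797), an alkaline ceramidase that supplies sphingosine, lay at 7.00, 8.03 and 7.14 FPKM with empty vector and at 7.41, 7.13 and 6.43 FPKM with LACTB. The groups overlapped, with a log2 difference of -0.071 (SE 0.069).

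Among the receptors, S1PR1 made up most of the signal and was higher with LACTB. S1PR1 (ENSG00000170989; chromosome 1, 101236865 to 101243713), a receptor coupled to the inhibitory Gi proteins, lay at 8.61, 8.37 and 7.90 FPKM with empty vector and at 11.6, 12.0 and 11.3 FPKM with LACTB. The groups were well apart, at means of 8.29 ± 0.359 and 11.65 ± 0.307 FPKM, a 1.40-fold difference with a log2 difference of 0.45 (SE 0.047). Counting error alone, without the spread between libraries, gave an exact 95% interval of 1.33 to 1.48 for the ratio of reads. Without any 1 library the ratio stayed between 1.37 and 1.43.

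S1PR2 and S1PR3, which couple to several classes of G protein, had means under 1 FPKM and did not enter the fit. S1PR2 (ENSG00000267534; chromosome 19, 10221433 to 10231331) lay at 0.609, 0.454 and 0.548 FPKM with empty vector and at 0.424, 0.638 and 0.382 FPKM with LACTB, on 25 to 40 reads per library. The groups overlapped, and the exact 95% interval of the read ratio, 0.668 to 1.19, allowed differences in both directions at this depth. S1PR2 shares 83 bases, 2.28% of its exon sequence, with DNMT1 on the same strand, a gene at 17.2 FPKM. How reads in shared exon were counted is not given in the sources used here. S1PR3 (ENSG00000213694; chromosome 9, 88990863 to 89005010) lay at 0.247, 0.329 and 0.315 FPKM with empty vector and at 0.407, 0.454 and 0.467 FPKM with LACTB, on 59 to 114 reads. Its LACTB libraries were all above the others, with a ratio of means of 1.49 and an interval of the read ratio from 1.248 to 1.775 for counting error only. With no filter on low values, its log2(FPKM + 1) difference was 0.15 (SE 0.059). The level of S1PR3 is divided over 13578 bases of annotated exon, more than 2 times the length of S1PR1.

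The 3 receptors summed to 9.13 ± 0.350 FPKM in the control line and to 12.6 ± 0.438 FPKM in the LACTB line. S1PR1 took 90.9% ± 0.652 of that sum with empty vector and 92.7% ± 0.909 with LACTB, and S1PR2 5.88% ± 0.803 and 3.81% ± 0.947. For S1PR2 the groups nearly met, at a lowest empty vector value of 4.96% and a highest LACTB value of 4.89%. The level of S1PR2 itself overlapped between the groups, so its lower share goes with the larger sum. The other 2 receptors of the family were at or near the limit of detection. S1PR4 had 5 reads, all in empty vector replicate 3, and S1PR5 had 2, all in empty vector replicate 2. Neither gene had a read with LACTB, where 3 reads per library would be worth up to 0.105 FPKM for S1PR4 and 0.0621 FPKM for S1PR5.

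In the fit over all genes, 8 of the 10 genes passed the filter of a mean of at least 1 FPKM. Of these, S1PR1 and SGPL1 were called higher, SPNS2 and SPHK1 lower, and 4 were not called; the call of SGPL1 was lost without LACTB replicate 2. Of all 11875 tested genes, 32% were called, 14.8% as higher and 17.2% as lower, at a Benjamini-Hochberg adjusted p under 0.05 in limma. The libraries of the groups did not overlap for 6 of the 8 genes, and for 47.4% of all tested genes. Because the set was chosen with this comparison in view, nothing is read from those counts.

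**Figure D3:**
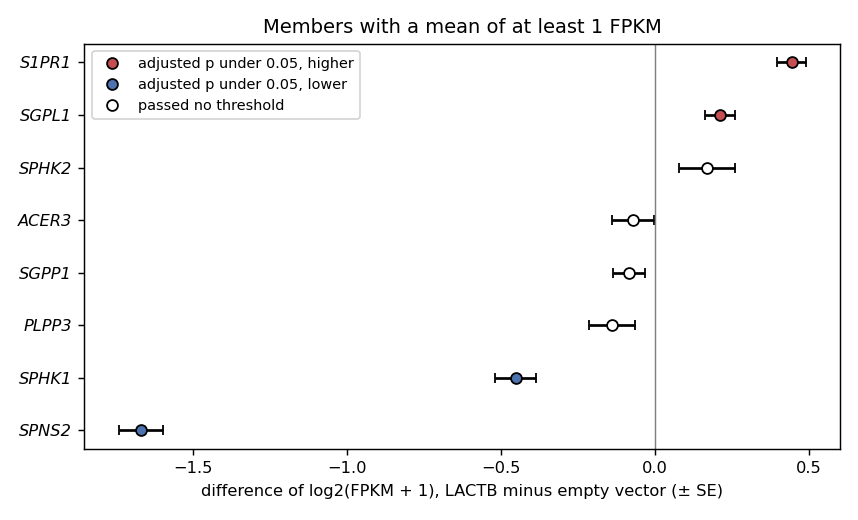
Difference of log2(FPKM + 1) between LACTB and empty vector (points, with SE as bars) for the 8 genes that passed the filter on low values. SPNS2 lies at -1.67 and SPHK1 at -0.45, SGPL1 and S1PR1 at 0.21 and 0.45, and the other 4 between -0.14 and 0.17.

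The pathway genes outside the set were grouped into 5 lists, and no list was tested as a set. Their counts stand beside 32% of all tested genes called, 14.8% as higher and 17.2% as lower. In the list of other S1P genes, 7 of 16 were tested, 1 rose and none fell, with a median log2 difference of 0.13 against -0.010 over all tested genes. ALDH3A2, the aldehyde dehydrogenase that oxidises the fatty aldehyde released by the lyase, rose 1.18-fold from 5.65 ± 0.246 to 6.64 ± 0.312 FPKM (limma, adjusted p = 0.0266). That call was lost without empty vector replicate 2 (adjusted p = 0.0817), LACTB replicate 2 (adjusted p = 0.091) or LACTB replicate 3 (adjusted p = 0.0865). It was also lost without a filter on low values (adjusted p = 0.0647), as TPM (adjusted p = 0.0603) and with the replicate block (adjusted p = 0.0814). At an unadjusted p under 0.05, 3 of the 7 (42.9%) passed, against 42.3% of all tested genes. Of other routes of S1P transport, ABCC1, a drug pump that has been tied to S1P export, was not called. It stood at 12.8 ± 0.509 and 11.7 ± 0.352 FPKM (limma, adjusted p = 0.1), with all LACTB libraries below all empty vector libraries. MFSD2B, the exporter of red blood cells and platelets, lay under the filter and was not tested. It had 31 reads summed over the empty vector libraries and 33 over the LACTB libraries.

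Synthesis of ceramide from serine, which feeds the pathway, had 4 of 11 tested genes lower and none higher, a median of -0.064. Called genes made up 36.4% of these, against 32% of all tested genes, and fallen genes 36.4% against 17.2%. SPTLC2, a catalytic subunit of serine palmitoyltransferase, fell 1.247-fold to 8.82 ± 0.220 FPKM (limma, adjusted p = 0.00229). SPTSSA, a small subunit of the same enzyme, fell 1.28-fold from 21.5 ± 1.49 to 16.7 ± 1.13 FPKM, and ORMDL3, an inhibitor of that enzyme, fell 1.28-fold from 12.3 ± 0.158 to 9.602 ± 0.894 FPKM. The fourth, DEGS1, the desaturase that completes ceramide, named after its values were seen, fell 1.15-fold to 33.1 ± 0.714 FPKM. Limma's adjusted p for SPTSSA, ORMDL3 and DEGS1 was 0.00893, 0.00876 and 0.00998. With voom on recovered reads 1 gene of the list also rose, and 5 of the 11 (45.5%) had an unadjusted p under 0.05, against 42.3% of all tested genes. As TPM, DEGS1 lost its call (limma, adjusted p = 0.1).

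Genes of sphingomyelin and glycosphingolipid metabolism went both ways, with 6 of 25 tested higher and 3 lower (median 0.016). That is 36% called, against 32% of all tested genes. UGCG, glucosylceramide synthase and by far the most abundant of the enzymes that use ceramide, fell 1.57-fold from 196.5 ± 15.5 to 124.8 ± 2.11 FPKM (log2 difference -0.65; limma, adjusted p = 0.000465). B4GALT6, a lactosylceramide synthase, fell 1.29-fold and CERK, ceramide kinase, 1.19-fold (limma, adjusted p = 0.00356 and 0.00277). PSAP, the precursor of the saposins that help lysosomal enzymes degrade sphingolipids, rose 1.33-fold from 171.6 ± 1.86 to 228.7 ± 3.78 FPKM (limma, adjusted p = 0.000387). The lysosomal hydrolase genes ARSA (arylsulfatase A) and SMPD1 (acid sphingomyelinase) rose 1.54-fold and 1.53-fold, to 4.82 ± 0.196 and 5.16 ± 0.465 FPKM (limma, adjusted p = 0.0134 and 0.0124). Without a filter on low values both passed no threshold (limma, adjusted p = 0.0573 and 0.0543).

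**Figure D4:**
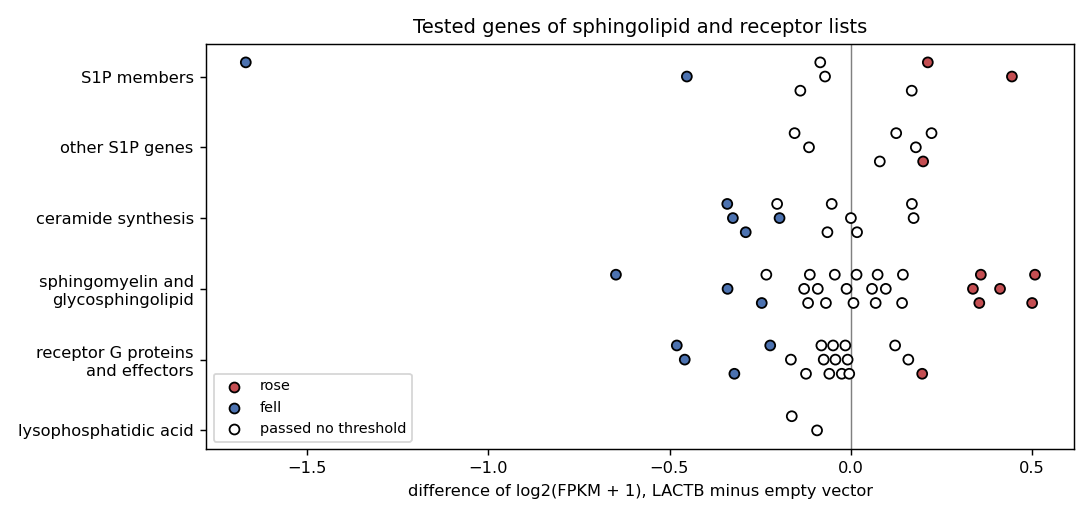
Difference of log2(FPKM + 1), LACTB minus empty vector, for each tested gene of 6 lists, 1 point per gene, spread vertically only for legibility. Filled points passed an adjusted p under 0.05 (red higher, blue lower). SPNS2, at -1.67, lies apart from all other genes shown, of which UGCG is next at -0.65.

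Proteins that relay or end receptor signals made up the next list, with 1 of 18 tested genes higher and 4 lower (median -0.054). The share called was 27.8%, against 32% of all tested genes. Both beta-arrestins, which bind activated receptors and bring about their uptake, fell: ARRB1 from 3.76 ± 0.261 to 2.46 ± 0.142 FPKM and ARRB2 from 5.69 ± 0.287 to 3.80 ± 0.175 FPKM (limma, adjusted p = 0.00242 and 0.00102). GNA12, a G protein subunit upstream of RhoA, fell 1.26-fold (limma, adjusted p = 0.00613), and RAC1, a GTPase of cell migration named after its values were seen, 1.17-fold (limma, adjusted p = 0.00579), a call that RAC1 lost as TPM (limma, adjusted p = 0.0717). ARHGEF11, a RhoA activator, rose 1.17-fold (limma, adjusted p = 0.0335), a call lost without any 1 library other than empty vector replicate 2 (adjusted p = 0.0566 to 0.103). ARHGEF11 also lost it when low genes were kept (limma, adjusted p = 0.0831) and with the replicate block (limma, adjusted p = 0.0858).

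Lysophosphatidic acid, a related lipid mediator, shares phosphatases such as PLPP3 with S1P. Of the 8 genes in its list, 2 were tested and none passed a threshold, with 0 at an unadjusted p under 0.05 and 0 with voom on recovered reads. LPAR3, the most abundant of its receptors here, stood at 14.1 ± 1.11 and 13.2 ± 0.118 FPKM (limma, adjusted p = 0.273).

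The genes with the pattern most like SPNS2 were ranked by Euclidean distance of log2(FPKM + 1) over the 6 libraries, which weighs level and difference together, with all tested genes as candidates. The 5 nearest were AC124067.2, MVK (mevalonate kinase), AP000769.1, FRMD5 and PNPLA3 (a lipid droplet hydrolase), at distances of 0.688 to 0.979. None of them fell as far: MVK went from 4.07 ± 0.306 to 1.47 ± 0.208 FPKM. The 5 nearest to S1PR1 were much closer, GLRX, TPP1, RRP12, TMEM9 and BX255925.3 at distances of 0.102 to 0.171. GLRX went from 8.16 ± 0.0940 to 12.0 ± 0.334 FPKM. With 2 groups of 3 libraries, such likeness reflects little more than a shared level and a shared group difference.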

How the data were processed

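The authors deposited 1 FPKM value per gene and library. The submitters' processing notes list GRCh38 (hg38), featureCounts 1.5.0-p3, HISAT2 2.0.5 and DESeq2 1.16.1, with no roles. Annotation release, multimapping and strand use: not given in the sources used here. Gene positions and exon lengths came from GENCODE 29, which held all 58735 gene IDs. Multiplying FPKM by exon length and dividing by a library constant gave whole reads (tolerance 0.1 reads) for 100% of values. Differences were fitted with limma 3.58.1 in R 4.3.3 on log2(FPKM + 1), its variance following mean level, for the 11875 genes whose mean reached 1 FPKM, with Benjamini-Hochberg adjustment over all of them. Libraries of 1 group differed by 2.02 to 12.4 in chi-square per degree of freedom, most (11.96 and 12.4) in the pairs with empty vector replicate 3. Each library counted as 1 sample in the fit, and these values do not show that the libraries are independent.

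The members and lists were chosen with earlier results of these data known. Named genes were the members, LACTB, up to 3 risen and 3 fallen genes per list by size, and the 5 nearest to SPNS2 and to S1PR1. Promoter sequences came from RefSeq. The 16 alternatives changed the pseudocount, filter, scaling, variance model, block, libraries or the values tested.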

Additional observations from a re-analysis of the deposited data

How the results depend on the processing

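The member differences describe values the choice rested on, and their range over the alternatives is no sign of stability: -2.44 to -1.64 for SPNS2, -0.49 to -0.39 for SPHK1, 0.18 to 0.25 for SGPL1 and 0.41 to 0.50 for S1PR1. With a mean of at least 5 FPKM, SPNS2 was not tested, which left 1 member lower. Without a given library, 1 to 2 members were higher. The SPNS2 difference was -2.33 with a pseudocount of 0.1, -2.14 as TPM and -2.44 with voom on recovered reads. Over all genes, 1155 rose at a mean of at least 5 FPKM, 1295 fell as TPM, and 1115 to 1505 rose or 1388 to 1800 fell with 1 library left out. Deviations of same-numbered libraries correlated at -0.126, 0.0194 and -0.0438, and those of differently numbered ones at -0.0601 to 0.109. With so few libraries per group, this cannot show whether same-numbered libraries were handled together. With the replicate block, 1155 rose and 1324 fell, and 0 genes rose among the other S1P genes and among the receptor G proteins. Risen genes among the other S1P genes numbered 2 without the variance trend or with voom, and 0 to 2 with 1 library left out. In ceramide synthesis 1 rose with library weights or voom, and 0 to 1 with 1 library left out. In the sphingomyelin list 3 rose without a filter or at 5 FPKM. Among receptor G proteins 2 rose with a pseudocount of 0.1, at 5 FPKM, with library weights or with voom, 0 without a filter, and 0 to 1 with 1 library left out. Of the lysophosphatidic acid genes 1 rose without a filter or as TPM. Fallen genes went from 4 to 3 in ceramide synthesis as TPM (DEGS1 lost). Among receptor G proteins they went from 4 to 3 as TPM (RAC1 lost) and at 5 FPKM (ARRB1 and ARRB2 not tested, GNA13 added), and to 5 with library weights, with voom or without LACTB replicate 1 (GNA13 added). The single risen S1P gene without a filter or as TPM was SPNS3, not ALDH3A2. The cause of these shifts was not tested, beyond the smaller or larger number of genes tested under a changed filter. Depth limits S1PR2, at 25 to 40 reads per library.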

Other observations

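SPNS3 and LPAR1, both under the filter of 1 FPKM, were picked after their values were seen. SPNS3, a relative of SPNS2 at 4433688 to 4488208 of chromosome 17 (GRCh38), just before SPNS2 on the same strand, lay at 0.530, 0.657 and 0.475 FPKM with empty vector and at 1.09, 1.36 and 1.49 FPKM with LACTB, on 80 and 188 summed reads, so it was higher where its neighbour was lower. Without a filter on low values its log2 difference was 0.57 (limma, adjusted p = 0.0283). MYBBP1A, on the other side of SPNS2 and overlapping it, stood at 18.2 ± 1.56 and 20.5 ± 0.308 FPKM. No other gene within 100 kb of SPNS2 had a mean that reached 0.5 FPKM.

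LPAR1, a receptor for lysophosphatidic acid, lay at 0.506, 0.464 and 0.440 FPKM with empty vector and at 1.10, 1.09 and 1.163 FPKM with LACTB. Without a filter its log2 difference was 0.53 (limma, adjusted p = 0.0131). PECAM1, an endothelial adhesion gene also picked after its values were seen, stood at 0.393 ± 0.0349 and 0.147 ± 0.0279 FPKM. Not all markers of vascular endothelium were lower: TIE1 stood at 36.3 FPKM and ROBO4 at 17.2 FPKM in both groups.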
